A study of Arabidopsis thaliana with 12 samples.

Results

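NTRC, PRXIIE and NADP-MDH are 3 nuclear genes for redox proteins of the Arabidopsis chloroplast. They were chosen with earlier results of these data known. Each was looked up by gene identifier, NTRC as AT2G41680, PRXIIE as AT3G52960 and NADP-MDH as AT5G58330. The probe used was one that the array's annotation assigns to that gene alone. Each gene had 1 such probe, numbered 1759, 1966 and 2697, and no probe listed any of them together with another gene. These are 3 of the 692 probes with a single annotated gene, on an array of 3439 probes. The 12 samples of total RNA came from Arabidopsis thaliana, ecotype Columbia 0, with 6 samples of the wild type (WT) and 6 of the mutant atc6, in which the cytochrome c6 protein is missing. All were grown on MS medium, a mineral medium for plant culture. The organ, the age of the plants and the number of independent mutant lines are not stated in the labels.

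Cytochrome c6 is a small haem protein that carries electrons to photosystem I in cyanobacteria and some algae, whereas in land plants plastocyanin does so. Electrons that leave photosystem I pass through ferredoxin, partly to NADP and partly to thioredoxins, which switch chloroplast enzymes on and off by reducing their disulphide bonds. NTRC encodes a thioredoxin reductase fused to its own thioredoxin domain, which uses NADPH and is known as an electron donor of the 2-Cys peroxiredoxins. PRXIIE encodes a type II peroxiredoxin of the stroma, an enzyme that reduces peroxides. NADP-MDH encodes the malate dehydrogenase of the malate valve, which thioredoxin activates in the light and through which the chloroplast exports surplus reducing power as malate.

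The deposited values are relative intensities between 0 and 100. Samples 1 and 2, 3 and 4, and 5 and 6 of a genotype formed close doublets, with deviations from the genotype mean that correlated across probes at 0.59 to 0.89, so each doublet was averaged and counted once (n = 3 per genotype). The labels do not say whether the doublets come from separate plants, so a p-value here speaks for the scatter of these samples alone, part of which may be technical. Replicates 1 and 2 of atc6 stood apart, with median intensities of 4.46 and 4.52 against 0.323 to 0.627 in the other 10 samples. Their spread was also narrower: the 99th percentile was 4.71 and 4.73 times the sample median in these samples, against 13.8 to 31.8 times elsewhere. Levels below are therefore given as deposited, as the percentile among all 3439 probes of the same sample, which needs no scaling between samples, and as log2 levels after quantile normalization. Those log2 levels carry an added pseudocount of 0.267, which makes differences of dim probes look smaller than they are. A percentile or an intensity describes a probe, and levels of different probes are not amounts of transcript that can be compared.

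NADP-MDH, the malate valve enzyme, had higher quantile-normalized levels in all 3 atc6 doublets than in the wild type, mostly through replicates 1 and 2. Its deposited intensities in the wild type were 1.64 at the lowest, 2.21 at the median and 2.40 at the highest of 6 samples. In atc6 replicates 3 to 6 they were 3.14, 3.23, 2.236 and 2.201, and in replicates 1 and 2, on their own scale, 21.0 and 21.7. As deposited the genotypes thus overlapped, because atc6 replicates 5 and 6 lay within the wild-type range. Within its sample the probe stood at percentiles of 87.6 to 93.5 in the wild type and of 95.0 to 99.1 in atc6, so that the 6 samples of each genotype did not overlap. The same held, in this direction, for 2.49% of the probes fitted. Divided by the median of its sample, NADP-MDH was at 2.62 to 4.73 in the wild type and 4.71 to 6.92 in atc6. By that measure the genotypes overlapped. By doublet the mean percentile was 87.7, 92.4 and 93.3 in the wild type and 99.1, 96.1 and 95.0 in atc6.

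The difference in mean percentile of NADP-MDH was 5.56 points, from 91.2 ± 2.99 in the wild type to 96.7 ± 2.11 in atc6 (SD, n = 3), and a two-sided exact permutation test gave p = 0.1, the smallest p that 3 against 3 doublets allow. On the normalized log2 scale the level was 2.02 ± 0.21 in the wild type and 2.86 ± 0.72 in atc6 (SD, n = 3). The difference of 0.84 ± 0.37 (SE), or 1.79-fold, had a 95% interval from -0.01 to 1.69. It did not pass limma's test (adjusted p = 0.845 over the 3329 probes fitted). No probe of the array passed an adjusted p of 0.05 (0 of 3329, or 0%). An unadjusted p under 0.05 was found for 5.02% of all probes and for none of NADP-MDH, PRXIIE and NTRC.

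Non-overlapping doublets with higher normalized values in atc6, as for NADP-MDH, were found in 5.80% of all probes. A difference of its size or larger in either direction was found in 3.94% of them. Doublets compared by number differed by 1.90 for replicates 1 and 2, by 0.44 for replicates 3 and 4 and by 0.18 for replicates 5 and 6. The atc6 doublet of replicates 1 and 2, at a log2 level of 3.68, was far above the other atc6 doublets at 2.53 and 2.36, and the wild-type doublet with the same numbers was the lowest of all, at 1.79. Without atc6 replicates 1 and 2 the difference was 0.63 (adjusted p = 0.741 in limma), and without replicates 1 and 2 of both genotypes it was 0.47. Divided by the sample median, by contrast, NADP-MDH was lowest in replicates 1 and 2 among the atc6 samples. It was at 4.71 and 4.80 there, against 6.29 to 6.92 in replicates 3 to 6. The part of the narrower scale of atc6 replicates 1 and 2 in the normalized difference was not tested.

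PRXIIE, the stromal peroxiredoxin, had a lower mean level in atc6 than in the wild type once samples were brought to a common scale. Its deposited intensities in the wild type were 2.03 at the lowest, 2.89 at the median and 3.46 at the highest of 6 samples. In atc6 they were 1.70 and 1.66 in replicates 3 and 4, 0.849 and 0.924 in replicates 5 and 6, and 14.8 and 13.9 in replicates 1 and 2. The atc6 samples 3 to 6 were thus below all 6 wild-type samples, and samples 1 and 2 above all of them on their own scale. Divided by the median of its sample, PRXIIE was at 4.16 to 5.57 in the wild type and at 2.63 to 3.41 in atc6, and the 6 samples of each genotype did not overlap, which held in this direction for 2.67% of the probes fitted. The 99th percentile over the sample median was 4.71 and 4.73 in atc6 replicates 1 and 2 and 22.9 to 31.8 in atc6 replicates 3 to 6, against 13.8 to 22.1 in the wild type. The part of the spread of the samples in this quotient was not tested.

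In percentiles the PRXIIE doublets were at 96.0, 92.3 and 95.4 in the wild type and at 93.0, 90.6 and 83.6 in atc6. Here the doublet of atc6 replicates 1 and 2 lay inside the wild-type range, and the difference of -5.48 points gave p = 0.2 (exact permutation, two-sided). The normalized log2 level was 2.33 ± 0.22 in the wild type and 1.90 ± 0.27 in atc6 (SD, n = 3). The difference of -0.43 ± 0.24 (SE), 1.35-fold lower, had a 95% interval from -0.998 to 0.14 and did not pass limma's test (adjusted p = 0.845). A difference of this size or larger was found in 23.7% of all probes.

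By doublet number the PRXIIE difference was -0.36, -0.13 and -0.80. No label pairs these numbers across genotypes, and how many of all probes kept their sign in every number was not counted. Without such pairing the normalized doublets overlapped, with atc6 replicates 1 and 2 at 2.15 and wild-type replicates 3 and 4 at 2.08. Without atc6 replicates 5 and 6 the difference was -0.27, and without atc6 replicates 1 and 2, the omission that moved it most, it was -0.81 (adjusted p = 0.738 in limma). With every sample scaled to a common median in place of quantile normalization it was -0.67 (adjusted p = 0.906 in limma, with an unadjusted p under 0.05), and the doublets did not overlap. Lower non-overlapping doublets were found in 5.80% of all probes under that scaling.

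NTRC, the NADPH-dependent thioredoxin reductase, varied more among the wild-type doublets than between the genotypes. Its deposited intensities in the wild type were 0.428 at the lowest, 0.736 at the median and 1.19 at the highest of 6 samples. In atc6 they were 0.565 and 0.668 in replicates 3 and 4, 0.261 and 0.401 in replicates 5 and 6, and 4.80 and 5.81 in replicates 1 and 2. Its probe was near the middle of the array, at 0.816 to 1.91 times the sample median in the wild type and 0.806 to 1.34 times in atc6, so the genotypes overlapped.

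The NTRC doublets stood at percentiles of 75.6, 65.8 and 48.1 in the wild type and of 55.8, 59.3 and 50.1 in atc6. The mean difference of -8.08 points gave p = 0.5 (exact permutation, two-sided). The normalized log2 level was 0.93 ± 0.44 in the wild type and 0.67 ± 0.15 in atc6 (SD, n = 3), and the difference was -0.26 ± 0.28 (SE), 1.20-fold lower, with a 95% interval from -0.90 to 0.38 (adjusted p = 0.881 in limma). By doublet number it was -0.63, -0.21 and 0.06. The samples within a doublet differed by up to 0.44 in the wild type and 0.54 in atc6, which is more than the genotypes differed. Without wild-type replicates 1 and 2, the highest doublet, the difference was -0.06, and without wild-type replicates 5 and 6, the lowest, it was -0.51.

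**Figure D1:**
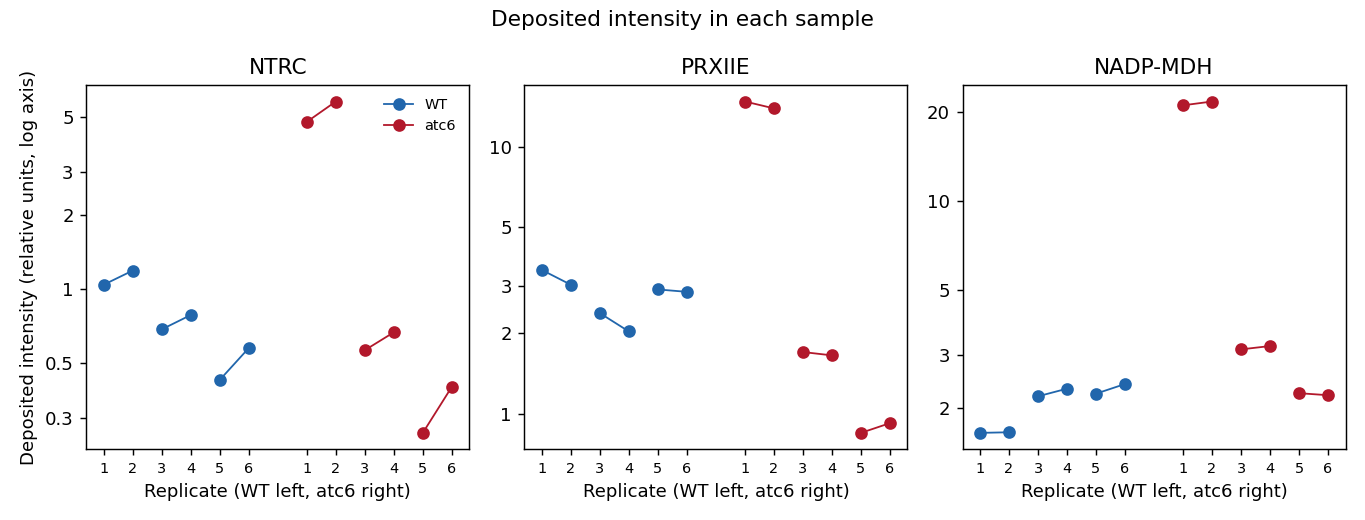
Deposited intensity (relative units, log axis) of NTRC, PRXIIE and NADP-MDH in each of the 6 WT (blue) and 6 atc6 (red) samples, with a line joining the samples of a doublet. The atc6 replicates 1 and 2 lie far above all other samples for each gene, at 4.80 and 5.81, 14.8 and 13.9, and 21.0 and 21.7.

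**Figure D2:**
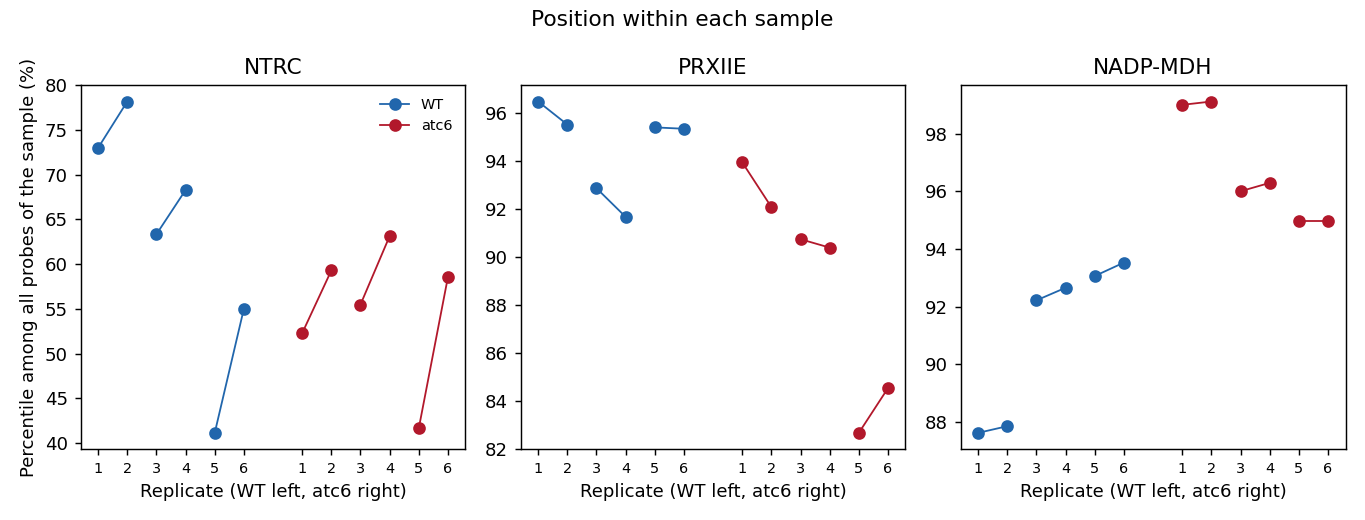
Percentile of each probe among the 3439 probes of the same sample (%), with points and lines as in the plot of deposited intensities and an axis of its own, not starting at 0, for each gene. All 6 atc6 samples of NADP-MDH lie above the 6 WT samples (95.0 to 99.1 against 87.6 to 93.5), while PRXIIE and NTRC overlap.

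The SD over the 3 doublets of a genotype also differed among the 3 genes. NADP-MDH was the most variable of them in atc6, where its SD over doublets exceeded that of 85.4% of all probes, while in the wild type it exceeded 38.9%. For NTRC the order was the opposite, with an SD above 81.3% of probes in the wild type and above 11.2% in atc6. PRXIIE was at 43.5% in the wild type and 30.8% in atc6. The SD of NADP-MDH in atc6 includes replicates 1 and 2, on their own scale as deposited, at a normalized level of 3.68 against 2.53 and 2.36. For NTRC in atc6 the samples of a doublet differed by 0.22 to 0.54, more than the SD of 0.15 over doublets. The differences in spread between genotypes were not tested. Over the 6 averaged doublets the normalized levels of the genes correlated, as a description, at r = 0.44 for NTRC with PRXIIE, -0.40 for NTRC with NADP-MDH and -0.24 for PRXIIE with NADP-MDH, with genotype and normalization shared by all points.

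Ratios between the probes within a sample do not depend on a scale factor common to that sample, and they describe unequal change only. They do depend on the spread of a sample, which was narrower in atc6 replicates 1 and 2. The part of that spread in the ratios was not tested. The ratio of NADP-MDH to PRXIIE, from deposited values, was 0.507, 1.02 and 0.800 in the wild-type doublets and 1.49, 1.90 and 2.50 in the atc6 doublets, which did not overlap. In single samples it was 0.475 to 1.14 in the wild type and 1.42 to 2.63 in atc6, likewise without overlap. The ratio of NADP-MDH to NTRC was 1.48, 3.06 and 4.66 in the wild type and 4.04, 5.18 and 6.86 in atc6, which overlapped. The ratio of PRXIIE to NTRC, averaged by doublet, was 2.72, 2.73 and 2.74 in atc6 and 2.91, 2.996 and 5.82 in the wild type. In single samples it ranged from 2.30 to 3.26 in atc6 and from 2.55 to 6.83 in the wild type, which overlapped. On the normalized log2 scale the same difference between PRXIIE and NTRC overlapped, at 1.10 to 1.46 in atc6 and 1.07 to 1.96 in the wild type, while that between NADP-MDH and PRXIIE still did not, at 0.58 to 1.54 against -0.72 to 0.01. These ratios were formed with the differences of the genes already known and were given no test. NADP-MDH and PRXIIE are the genes with the most positive and the most negative difference of the members, at 0.84 and -0.43. How many other pairs of probes did not overlap was not counted, so the missing overlap of this pair has no background beside it.

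To place the genes in their pathways, 97 genes of chloroplast and cellular redox metabolism were listed in 6 groups, of which 8 had a probe of their own, the 3 genes above included. None of the 8 passed limma's test over all probes (adjusted p from 0.785 to 0.942), and 1, PRK, had an unadjusted p under 0.05, against 5.02% of all probes. Normalized differences were positive in 4 and negative in 4, with a median of 0.17 against 0.04 over all 3329 probes. The doublets of 2 of the 8, NADP-MDH and PRK, did not overlap, against 11.2% of all probes. The genes and lists were chosen with earlier results of these data known, so these counts are a description and no test of the lists. The list of 27 ascorbate, glutathione and superoxide enzymes and the list of 7 ferredoxins and ferredoxin reductases had no gene with a probe of its own and were not analysed here.

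Of the 22 genes of the thioredoxin systems, FTRB was measured beside NTRC. FTRB (AT2G04700, probe 3436) encodes the catalytic subunit of ferredoxin-thioredoxin reductase, which passes electrons from ferredoxin to the thioredoxins that activate enzymes such as NADP-MDH. Its deposited intensities were 0.305 to 0.598 in the wild type, 0.432 to 0.469 in atc6 replicates 3 to 6 and 6.83 to 7.71 in atc6 replicates 1 and 2. The normalized log2 level was 0.15 ± 0.51 in the wild type and 0.79 ± 0.34 in atc6 (SD, n = 3), and the difference of 0.63 ± 0.32 (SE) had an interval from -0.11 to 1.38 and an adjusted p of 0.845 in limma. FTRB and NADP-MDH both had their highest doublet in atc6 replicates 1 and 2, at 1.07 and 3.68, and their lowest in wild-type replicates 1 and 2, at -0.39 and 1.79. As deposited these atc6 samples are on their own scale, and how many of all probes shared this normalized order was not counted.

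Of the 15 peroxiredoxins and other thiol-based antioxidant enzymes, SRX was measured beside PRXIIE. SRX (AT1G31170, probe 2656) encodes sulfiredoxin, which repairs overoxidized 2-Cys peroxiredoxins. Its deposited intensities were 0.183 to 0.555 in the wild type, 0.225 to 0.553 in atc6 replicates 3 to 6 and 0.971 to 1.08 in atc6 replicates 1 and 2, where the sample medians were above 4. The normalized difference was -0.14 ± 0.39 (SE), with an interval from -1.05 to 0.77 and an adjusted p of 0.942 in limma. The atc6 doublets were at -0.79, 0.63 and 0.10, with the lowest in replicates 1 and 2, where NADP-MDH was highest. As deposited those samples are on their own scale, and how many of all probes had their lowest normalized doublet there was not counted.

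Of the 12 genes of the malate valve and the other malate dehydrogenases, NADP-MDH alone had a probe of its own. Of the 14 further enzymes known to be regulated by thioredoxin, 3 were measured. These were PRK (phosphoribulokinase) at 1.46 ± 0.30 (SE), CHLM (a methyltransferase of chlorophyll synthesis) at 0.47 ± 0.31 and SBPASE (sedoheptulose-bisphosphatase) at -0.40 ± 0.24, with adjusted p-values of 0.785, 0.845 and 0.845 in limma.

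**Figure D3:**
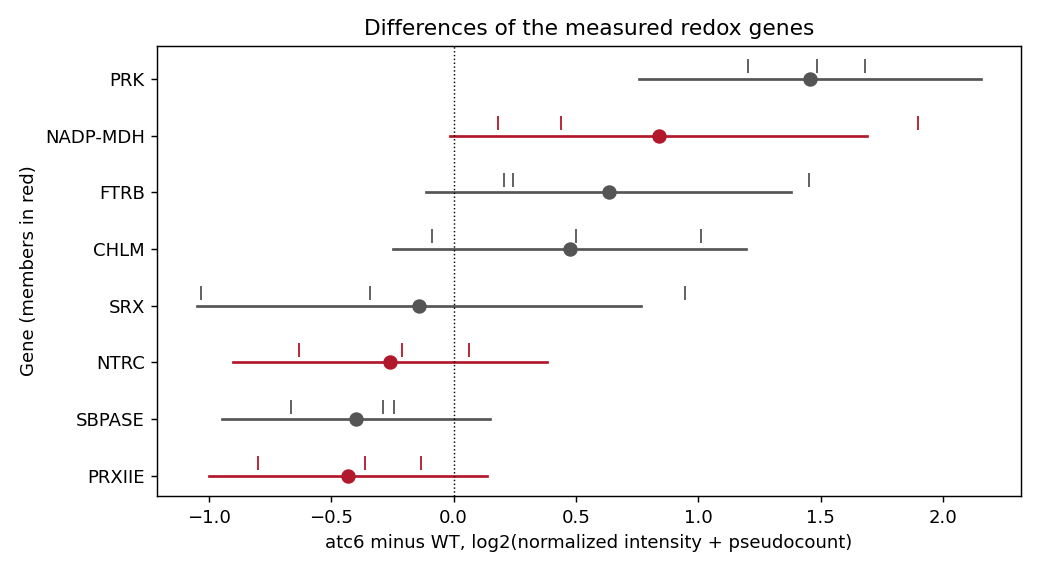
Normalized log2 difference, atc6 minus WT, of the 8 measured redox genes, with points for the fitted difference, horizontal lines for its 95% interval, short upright marks for the difference of each numbered doublet, and the 3 members in red. The intervals of NADP-MDH (-0.01 to 1.69), PRXIIE (-0.998 to 0.14) and NTRC (-0.90 to 0.38) all include 0, and the marks of NADP-MDH range from 0.18 to 1.90.

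The genes with a single-gene probe and no value at 0 whose pattern over the 6 averaged doublets was most like that of each gene were listed by Pearson's r, among 610 candidates and as a description only. For NADP-MDH these were AT1G74470, annotated as geranylgeranyl reductase, AT1G35210 and AT1G70350, each at r = 0.97. All 3 had their highest doublet in atc6 replicates 1 and 2, and 21 of the 610 candidates exceeded 0.9. For PRXIIE they were AT1G01500 and AT5G17280 at r = 0.96 and AT3G13150 at r = 0.92, all lowest in atc6 replicates 5 and 6. For NTRC they were AT1G09200, a histone gene, at r = 0.94, and AT5G40050 and AT1G01080 at r = 0.91, all highest in wild-type replicates 1 and 2. All points share the normalization, the genotypes and the averaging into doublets. Because the genes were picked by r over these doublets, a shared highest or lowest doublet is not a separate result. Over the 12 single samples r was 0.93 to 0.95 for the genes like NADP-MDH. It was 0.89 to 0.95 for those like PRXIIE and 0.76 to 0.87 for those like NTRC.

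Under all 32 other settings NADP-MDH kept a positive difference, from 0.47 to 1.33, while NTRC and PRXIIE were negative in 31 of the 32 and positive on the values as deposited, where the median of all probes shifted by 0.66. The adjusted p of the 3 genes stayed above the threshold in every setting run, with 0.0892 for NADP-MDH as the lowest, reached with the 12 samples taken as separate replicates.

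**Figure D4:**
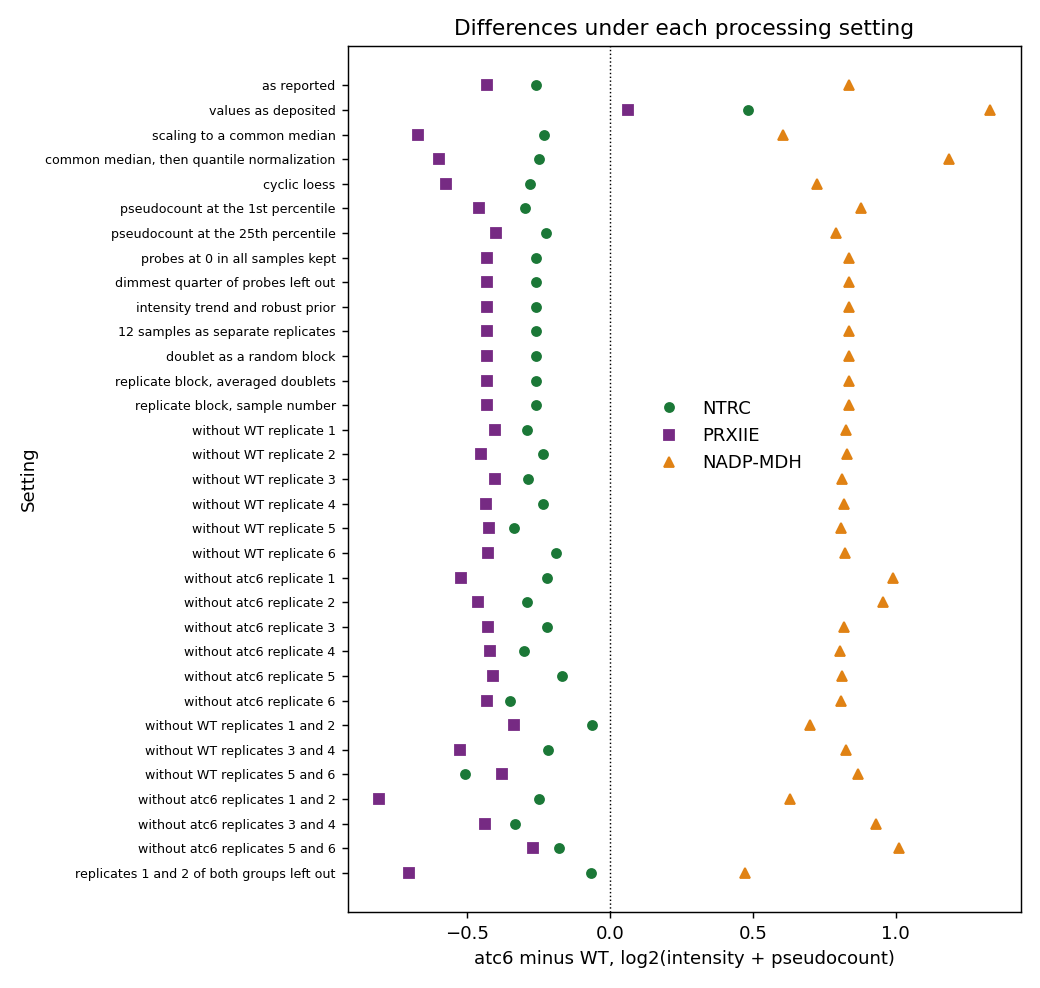
Log2 difference, atc6 minus WT, of NTRC (circles), PRXIIE (squares) and NADP-MDH (triangles) under the reported setting and each of 32 others, 1 per line. NADP-MDH lies between 0.47 and 1.33, and PRXIIE and NTRC cross 0 on the values as deposited alone, at 0.06 and 0.48.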

How the data were processed

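The deposited intensities, 1 per probe and sample, were read from the series' value table. Their scanner, background correction and scaling are unstated in the labels, and that these deposited intensities are linear was read from the values. Genes were named from the platform annotation: 692 probes with 1 gene, 870 with several and 1877 not listed, all probes of several genes left unnamed. Of the 692, 690 matched the TAIR10.1 gene table by gene ID, which was used for names only. All 12 samples were quantile-normalized together after 110 probes at 0 everywhere were left out. The pseudocount was the 10th percentile of all normalized intensities above 0. Averaged doublets were compared in R 4.3.3 by limma 3.58.1 with its moderated two-sided test (eBayes), adjusted by Benjamini-Hochberg over 3329 probes, threshold 0.05. The fit was tested on simulated data.

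Samples with the same number in both genotypes correlated, in deviations from the genotype mean, at 0.11 to 0.30, all above the required 0.1, and a fit with the number as a replicate block was therefore added. Between samples of different numbers the highest correlation was 0.12, so the required 0.1 does not mark matched sample numbers alone. That maximum includes the other sample of the same doublet number, so it does not show whether samples of other doublets reached 0.1. Averaged doublets gave 0.07, 0.14 and 0.24. The first of these is under 0.1 and close to the 0.06 of that wild-type doublet with an atc6 doublet of another number. This pairing rests on the data, as no label explains the numbers. Other settings varied the normalization, the pseudocount, the filter, the prior and the replicates kept. The genes named are NTRC, PRXIIE, NADP-MDH, every measured gene of the redox lists and the 3 genes most alike to each of them. The genes and lists were chosen with earlier results of these data known. The 12 samples limit the precision of every value.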

Additional observations from a re-analysis of the deposited data

How the results depend on the processing

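The number of probes passing limma's adjusted p was 0 of 3329, with 167 at an unadjusted p under 0.05. It was 1 when the pseudocount was the 1st percentile, when the prior was robust with a trend, or when the doublet was a random block, 99 with all 12 samples entered separately and 55 with a replicate block by sample number, which both treat the samples of a doublet as independent. With samples or doublets left out it was 0 to 2, with 1 without wild-type replicate 3 and 2 without atc6 replicates 3 and 4. The replicate block on averaged doublets gave 0 (163 at an unadjusted p under 0.05) and changed no call. On the values as deposited NTRC turned to 0.48 and PRXIIE to 0.062, where the median over all probes was 0.66. The cause was not tested. With samples or doublets left out NADP-MDH lay between 0.63 and 1.01, PRXIIE between -0.81 and -0.27 and NTRC between -0.51 and -0.06. NTRC was at -0.17 without atc6 replicate 5, and at -0.07 without replicates 1 and 2 of both genotypes, where PRXIIE was at -0.70. An unadjusted p under 0.05 was reached in 11 of 32 settings by NADP-MDH, in 4 by PRXIIE and in 0 by NTRC. The share of all probes reaching it was 22.4% with the samples entered separately and 23.7% with a replicate block by sample number. In the other settings that share was 0.270% to 9.91%. The settings reuse the same samples and are not separate tests. Differences in percentile kept their sign in all 7 settings of each gene, with exact permutation p from 0.1 to 0.9, but their size moved. For NTRC, -8.08 points became -1.87 without wild-type replicates 1 and 2. It became -15.6 when wild-type replicates 5 and 6 were omitted. For PRXIIE, -5.48 became -2.75 without atc6 replicates 5 and 6. For NADP-MDH the range was 3.85 to 6.63. Leaving out a doublet leaves 2 against 3.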

Other observations

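The NTRC probe was higher in the second sample than in the first in 6 of 6 doublets, as deposited, by a ratio of 1.14 to 1.54. Of all 3329 probes, 229 (6.88%) were higher and 165 (4.96%) lower in the second sample of all 6 doublets. PRXIIE was lower in the second sample in 5 doublets and NADP-MDH higher in 5, with ratios of 0.854 to 1.09 and 0.985 to 1.08. This pattern was noticed after the values were seen and was given no test.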
